A study of Mus musculus with 30 samples.

Results

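The miR-17/92 cluster and its paralogs were examined through 10 microRNA genes, found by symbol among the 2194 named features of the authors' deposited tables for 5 organs. Mir17, Mir19a, Mir20a and Mir19b-1 belong to the Mir17-92 cluster, Mir106b, Mir93 and Mir25 to the Mir106b-25 cluster, and Mir106a, Mir20b and Mir363 to the Mir106a-363 cluster. All 10 genes were present in all 5 tables. Small RNA of spleen, liver, kidney, heart and brain had been sequenced from 3 male Ftsj1_DF mice, which are deficient in Ftsj1, and 3 male WT mice, all 4 months old and left without special treatment. Ftsj1 encodes a tRNA methyltransferase, and the design asks how small RNA differs between the genotypes in each organ. The mice come from 2 sets of brothers, the labels name neither the allele nor the strain, and 1 WT library each of heart, kidney and liver belongs to a second batch.

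The 3 clusters arose by duplication, and each is transcribed as 1 primary RNA from which several hairpins are cut. A microRNA finds its target mRNAs through its seed, bases 2 to 8 from the 5′ end, so that genes with the same seed can repress overlapping sets of targets. In mice the Mir17-92 cluster is known for its part in cell proliferation and in B-cell and lung development, and it is a target of Myc. The Mir106b-25 hairpins lie within a gene for a replication helicase subunit, and the Mir106a-363 cluster is X-linked.

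Only 3 seeds cover the 10 genes, and the mature sequences are shown because the seed groups and near-identical pairs decide which values can be told apart. They are the RefSeq sequences of GRCm38.p6, 5′ to 3′, of the arm usually loaded, with the seed in capitals, and all 10 genes were matched by symbol.
miR-17-5p: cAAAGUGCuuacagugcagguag
miR-20a-5p: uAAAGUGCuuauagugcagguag
miR-106b-5p: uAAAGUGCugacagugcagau
miR-93-5p: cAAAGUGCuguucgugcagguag
miR-106a-5p: cAAAGUGCuaacagugcagguag
miR-20b-5p: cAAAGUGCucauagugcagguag
miR-19a-3p: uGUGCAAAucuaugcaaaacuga
miR-19b-3p: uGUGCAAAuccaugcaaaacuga
miR-25-3p: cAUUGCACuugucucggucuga
miR-363-3p: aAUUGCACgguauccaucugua
miR-92a-3p: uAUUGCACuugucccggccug

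The first 6 sequences share the miR-17 seed, the next 2 the miR-19 seed, and miR-25, miR-363 and miR-92a the miR-25 seed. miR-17 and miR-106a differ by the single substitution U10A, counted from 1 at the 5′ end with the miR-17 base first. miR-20a and miR-20b differ by U1C and U10C, with the miR-20a base first, and miR-19b and miR-19a by C11U, with the miR-19b base first. miR-19b-3p is the same sequence from Mir19b-1 and from Mir19b-2 of the Mir106a-363 cluster, and miR-92a-3p is the same from Mir92-1 (Mir17-92 cluster) and Mir92-2 (Mir106a-363 cluster). How reads that fit both copies were assigned is not given in the sources used here, so values of Mir19b-1 are uncertain at the level of the gene. The mature sequences are 21 to 23 bases long, so no correction for length was made. Other differences between genes in how their reads are captured or assigned were not corrected for.

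On GRCm38.p6 the hairpins of the Mir17-92 cluster span chr14:115043671-115044506 on the plus strand, within the long noncoding RNA gene Mir17hg. The Mir106b-25 hairpins span chr5:138165321-138165818 on the minus strand, within the protein-coding gene Mcm7. The Mir106a-363 hairpins span chrX:52741693-52742567 on the minus strand, where the annotation holds the transcript Kis2. The deposited counts were made on GRCm39, so these positions are those of the reference and not of the tables.

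The tables were normalized separately for each organ, so levels were set side by side as shares of each table's summed mean normalized counts, in ppm (counts per 1000000 counts of the table). These sums were 10737328 in spleen, 18941389 in liver, 21787131 in kidney, 8511372 in heart and 16119031 in brain. The labelled organs matched the summed share of their marker microRNAs: the fixed lists for brain, heart, kidney and liver and the leukocyte list for spleen were each highest in their own organ, although Mir9-1, Mir1a-2 and Mir142 were at 0 in all 5 tables. In the kidney list, however, Mir192, Mir194-1 and Mir194-2 were higher in liver, at 42181, 12228 and 21353 ppm. In kidney they stood at 12780, 4716 and 8546, and Mir10a, Mir10b and Mir30a were highest there. Ftsj1 is an mRNA and is not counted here, which leaves the genotype labels without a check.

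Spleen held the highest level of each of the 10 genes. Together they made up 0.91% of the counts in spleen, 0.209% in liver, 0.241% in kidney, 0.339% in heart and 0.0922% in brain, and spleen was 2.69 times the next organ, heart. Among the 326 features with a mean of at least 10 in every organ, 24.5% were highest in spleen, and 8 of the 10 genes meet that filter (Mir106a and Mir20b do not). Among all 1516 features above 0 in any organ, 35.8% were highest in spleen. The spread of these shares over mice is not known, because the tables give 1 mean per organ, and no test was made between organs. In bulk tissue, more cells of an expressing type and more RNA per cell cannot be told apart. The leukocyte markers made up 1.47% of the counts in spleen and between 0.0221% and 0.184% in the other 4 organs, and their part in the spleen level was not tested. The red cell markers moved otherwise: they made up 0.139% in spleen and 0.229% in heart, with Mir451a at 0 in every table.

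**Figure D1:**
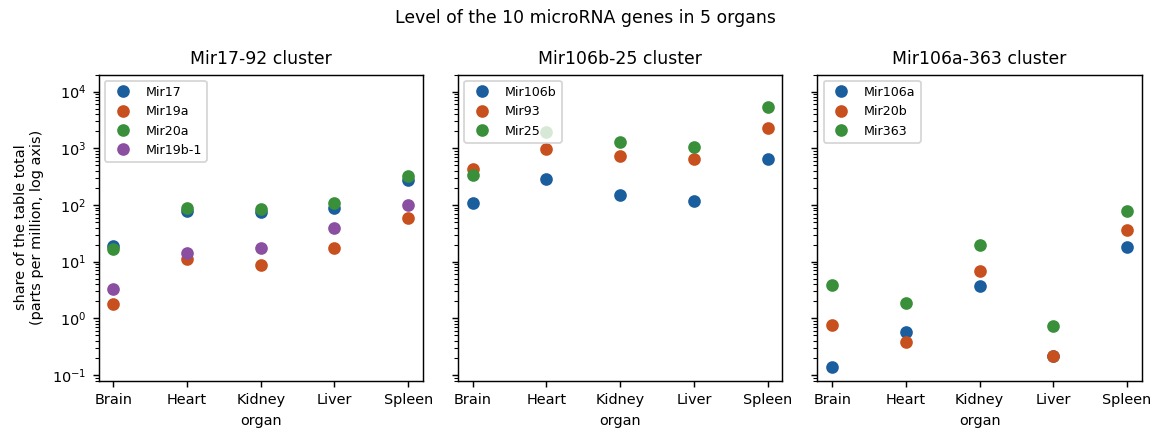
Level of each of the 10 genes in the 5 organs as a share of the table total, in ppm on a log axis, with 1 panel per cluster and 1 point per organ (the deposited mean over 6 libraries, no error available). All 10 genes are highest in spleen, and the Mir106a-363 genes are second in kidney and lie at 20.1 ppm or less outside spleen.

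Within the 10 genes, the Mir106b-25 cluster supplied most of the counts in every organ, from 87.8% of the 10 genes' total in liver to 95.0% in brain. Mir92-1, which is not among the 10 genes, is left out of these shares. Mir25 stood at 5312 ppm in spleen, 1067 in liver, 1316 in kidney, 1950 in heart and 335 in brain. Mir93 stood at 2246 in spleen, 649 in liver, 732 in kidney, 954 in heart and 431 in brain. The order of these neighbours therefore differed by organ: Mir25 was 0.777 times Mir93 in brain and between 1.65 and 2.36 times Mir93 in the other 4 organs. Mir106b, cut from the same primary RNA, was the lowest of the 3 in every organ, with 648 ppm in spleen, 116 in liver, 149 in kidney, 285 in heart and 109 in brain. Because Mir25 carries another seed than its neighbours, the miR-17 seed took 62.6% of the 10 genes' counts in brain and between 39.0% and 46.1% elsewhere. These shares leave out Mir92-1, Mir92-2, Mir32 and Mir92b, which also carry the miR-25 seed. In brain Mir92-1 stood at 1063 ppm and Mir92b at 1090, each above the 577 summed over the miR-17 seed. The reads of brain were recovered per library for Mir25 and Mir93 (how is described further on). Mir25 was at 6593, 5022 and 4160 normalized counts in the 3 libraries of one genotype and 4669, 4618 and 7373 in those of the other. Mir93 was at 8352, 6983 and 7018 in the first and 7061, 6252 and 6056 in the second. Mir93 was above Mir25 in 5 of these 6 libraries.

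The 4 genes of the Mir17-92 cluster summed to 763 ppm in spleen, 253 in liver, 184 in kidney, 193 in heart and 41.0 in brain. Mir17 and Mir20a, which share a seed, ran close together: Mir20a was 0.886 times Mir17 in brain and between 1.13 and 1.25 times Mir17 in the other organs. Mir19a and Mir19b-1 were lower, with 1.77 and 3.29 ppm in brain and 59.6 and 99.5 in spleen. Mir19a, cut from the same primary RNA as Mir17, was 9.27% of Mir17 in brain and 21.7% in spleen. In the recovered reads the ratio of Mir19a to Mir17 ran from 0.046 to 0.205 over the brain libraries, with 167 Mir19a reads in all. In spleen it ran from 0.198 to 0.293, so the ranges of these organs overlapped. The cluster's other 2 genes are listed as Mir18 (miR-18a) and Mir92-1 (miR-92a). Mir18 lay between 4.67 ppm in brain and 86.1 in spleen. Mir92-1 stood at 12528 in spleen, 4531 in liver, 2790 in kidney, 4854 in heart and 1063 in brain, which was between 37.6 and 61.8 times Mir17. With these 2 genes, the Mir17-92 cluster summed to 13377 ppm in spleen, 4799 in liver, 2989 in kidney, 5069 in heart and 1108 in brain. That was above the 3 Mir106b-25 genes in every organ, which summed to 8206, 1832, 2197, 3189 and 876 in the same order. Some of the reads counted for Mir92-1 could come from Mir92-2, which has the same mature sequence.

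The Mir106a-363 cluster differed most between organs. Its 3 genes summed to 131 ppm in spleen, 1.16 in liver, 30.6 in kidney, 2.83 in heart and 4.79 in brain. Mir363 stood at 77.0 in spleen, 0.722 in liver, 20.1 in kidney, 1.86 in heart and 3.88 in brain. Mir20b had 35.7 in spleen, 0.218 in liver, 6.76 in kidney, 0.381 in heart and 0.776 in brain. Mir106a had 18.2 in spleen, 0.218 in liver, 3.77 in kidney, 0.584 in heart and 0.141 in brain. Few reads stood behind the lowest of these levels: over 6 libraries Mir106a had 32 reads in liver, 28 in heart and 14 in brain, while Mir363 had 91 in liver, 131 in heart and 391 in brain. Mir106a was 6.62% of its near-twin Mir17 in spleen, 5.08% in kidney, 0.741% in brain, 0.743% in heart and 0.249% in liver. Of the cluster's other genes, Mir18b was at 0 in brain and liver and at 2.59 ppm in spleen. Mir19b-2 and Mir92-2 did not follow the rest of the cluster. Mir19b-2 had 67.8 ppm in liver, where Mir106a and Mir20b had 0.218 each, and Mir92-2 had 199. Both carry a mature sequence that a Mir17-92 gene also makes.

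Elsewhere in the genome, Mir32 and Mir92b also carry the miR-25 seed, while Mir367, which carries it too, was at 0 in all 5 tables. Mir92b was highest in brain, with 1090 ppm against 4.13 to 25.2 in the other organs, so that in brain it stood above Mir25. Mir32 was highest in spleen with 183 ppm and second in kidney with 93.2.

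The features whose log2 shares over the 5 organs most resembled the mean log2 share of a cluster's genes were sought. The search covered 185 others with a mean of at least 100 in every organ. For Mir17-92 they were Mir15a (Pearson r = 0.997), Mir26b (0.964) and Mir142b (0.948), for Mir106b-25 Mir15b (0.991), Mir16-1 (0.984) and Mir223 (0.984), and for Mir106a-363 Mir425 (0.918), Mir532 (0.917) and Mir423 (0.900). These are descriptions over 5 organs whose shares rest on the same tables and totals.

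For the genotypes, the authors' deposited table of each organ gives a DESeq2 Wald test between Ftsj1_DF and WT, and it does not name the genotype in the numerator. Fold changes are therefore given with their sign alone, and signs of different organs can be compared only if the numerator is the same. The values are means over an organ's libraries, but the 6 size factors of an organ can be solved from its lowest means, and most larger means can then be split into whole reads. Exactly 1 split gave back both the deposited mean and the deposited fold change for 43 of the 50 values of these genes. The other 7, Mir93 in kidney, liver and spleen and Mir25 in every organ but brain, were too large to split. The 3 libraries of the numerator genotype are called the positive side and the others the negative side, and within a side libraries are numbered from the largest size factor down. They could not be tied to mice, so each library's value is given. That the groups hold separate mice is stated by the labels. In liver the size factors separate the sides, which ran from 0.5 to 0.729 on the positive and from 1.45 to 2.15 on the negative side, so depth and genotype cannot be told apart there. Which library is from the second batch in heart, kidney and liver is not known.

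None of the 10 genes passed an adjusted p of 0.05 in any organ by the authors' DESeq2 test, and 2 of the 50 values had an unadjusted p below 0.05, both of them Mir19b-1. Of all features with an adjusted p, 0% passed in spleen, 0.229% in liver, 0% in kidney, 1.13% in heart and 0% in brain. At an unadjusted p below 0.05 these shares were 3.48% in spleen, 3.9% in liver, 4.5% in kidney, 5.33% in heart and 2.23% in brain, so 2 values of 50 is near the background. Heart Mir106a, Mir20b and Mir363 carry no adjusted p in the deposited table.

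The signs of the 10 genes were mixed. In spleen 3 were positive, with a median deposited log2 fold change of -0.12, in liver 6 (0.13), in kidney 6 (0.09), in heart 9 (0.36) and in brain 6 (0.15), by the authors' deposited tables. Over all features with a statistic, the medians were 0.00 in spleen, 0.07 in liver, 0.04 in kidney, 0.16 in heart and -0.01 in brain. For features with a mean of at least 10 they were -0.00 in spleen, 0.01 in liver and -0.03 in kidney. In heart the median was then -0.01 and in brain -0.00. Of such features, 224 of 450 were positive in spleen, 200 of 393 in liver and 208 of 432 in kidney. In heart 206 of 427 were positive and in brain 259 of 519. Centring on the level-weighted mean log2 fold change was used in place of scaling to total counts, since total reads per library are not known. It shifts every log2 fold change by 0.13 in spleen, 0.19 in liver, -0.18 in kidney, 0.04 in heart and 0.20 in brain. The medians of the 10 genes then turn to -0.10 in kidney and 0.02 in spleen. By cluster, the 3 Mir106b-25 genes were all positive in kidney and liver and all negative in spleen. With this centring Mir106b and Mir25 turned negative in kidney, and Mir106b came to lie barely above 0 in spleen. The 3 Mir106a-363 genes were all positive in heart, with and without the centring, and all negative in spleen, where Mir363 turned positive with it. By seed, Mir19a and Mir19b-1 were both positive in spleen, kidney, heart and brain, and in liver Mir19b-1 was at -0.00. In kidney both came to lie slightly below 0 with the centring. Mir19b-2, the further source of miR-19b, was at -0.05 in spleen, 0.09 in liver, -0.11 in kidney, 0.62 in heart and -0.38 in brain, by the authors' deposited tables.

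**Figure D2:**
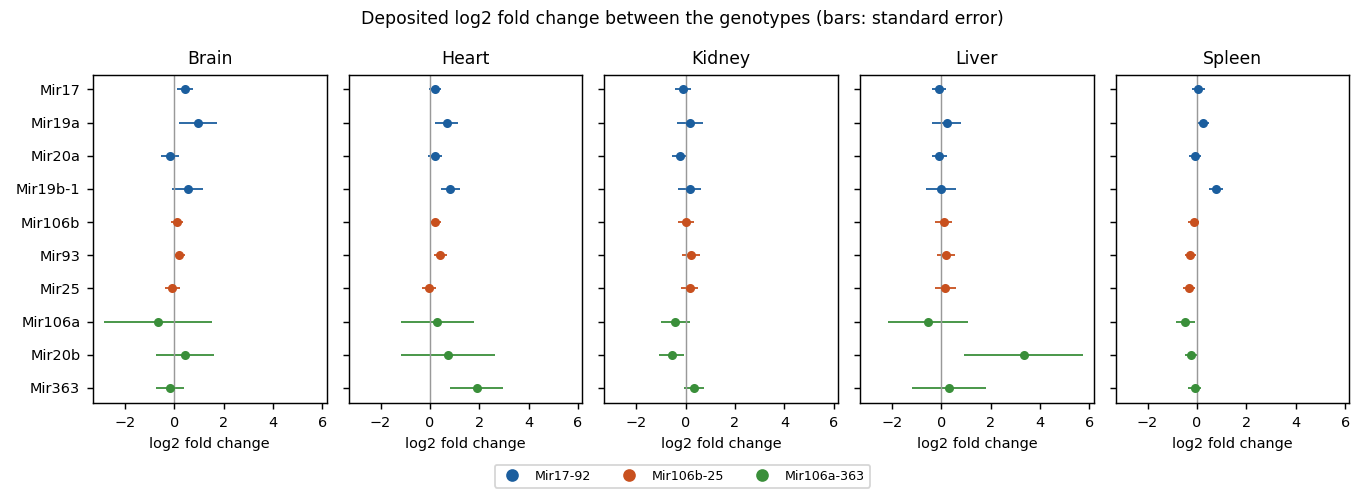
Deposited log2 fold change of each gene between the genotypes (x axis, shared by the panels) with its standard error as a bar, in 1 panel per organ and coloured by cluster, with the numerator genotype not named. Most points lie within 1 log2 unit of 0, the Mir106a-363 genes have the widest bars in heart and liver (in brain Mir106a and Mir20b), and Mir19b-1 lies at 0.77 in spleen.

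Mir19b-1, 1 of the 2 sources of miR-19b, had the lowest p in spleen. Its normalized counts there were 956, 1718 and 1367 on the positive side and 812, 697 and 857 on the negative side. The sides did not overlap, and libraries 2 and 3 of the positive side stood above all others. In the authors' deposited table the log2 fold change was 0.77 with a standard error of 0.27, p = 0.00462 and adjusted p = 0.988 by DESeq2. Without each library in turn the log2 ratio of the side means lay between 0.56 and 0.97.

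In heart Mir19b-1 had 135, 136 and 198 normalized counts on the positive side and 64.8, 95.1 and 107 on the negative side. These sides did not overlap either. The authors' deposited table gives a log2 fold change of 0.82 with a standard error of 0.38, p = 0.0305 and adjusted p = 0.319 by DESeq2. In brain its counts were 60.8, 42.1 and 86.3 against 52.8, 64.1 and 12.2, in kidney 467, 329 and 406 against 436, 167 and 472, and in liver 1139, 612 and 436 against 536, 316 and 1343, with the positive side given first. The sides overlapped in these 3 organs, and 1 low library (brain and kidney) or 2 high ones on opposite sides (liver) set most of the spread.

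Adding the second source of the same mature sequence changed this picture in spleen but not in heart. Spleen Mir19b-2 had 2887, 1774 and 1757 normalized counts on the positive side and 2449, 1856 and 2345 on the negative side. The 2 libraries that were highest in Mir19b-1 were thus the 2 lowest in Mir19b-2. The sum of both genes was 3843, 3492 and 3124 on the positive side and 3262, 2554 and 3201 on the negative side, so the sides overlapped and the log2 ratio of the sums was 0.21, against 0.77 for Mir19b-1 alone. Heart Mir19b-2 had 351, 436 and 415 on the positive side and 173, 345 and 269 on the negative side, which did not overlap. Its deposited log2 fold change was 0.62 with a standard error of 0.31, p = 0.0481 and adjusted p = 0.407 by DESeq2 in the authors' deposited table. The heart sum of both genes was 486, 572 and 613 on the positive side and 238, 440 and 377 on the negative side, with no overlap and a log2 ratio of 0.66. In brain the log2 ratio of the sums was -0.17, in kidney -0.04 and in liver 0.05, and the sides overlapped. The adding of the 2 genes was chosen after these values had been seen.

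**Figure D3:**
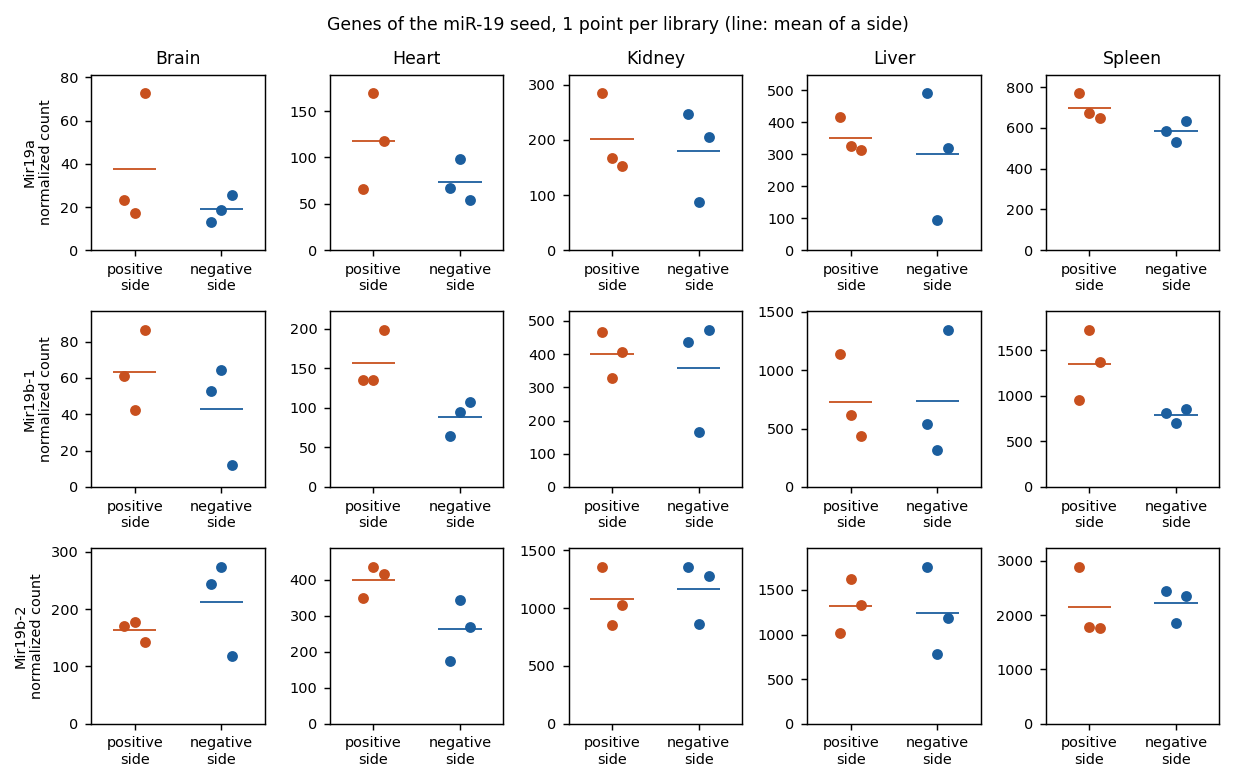
Normalized counts of Mir19a, Mir19b-1 and Mir19b-2 (rows) in the 5 organs (columns), 1 point per library on an axis that starts at 0, positive side left and negative side right, with a line at the mean of each side. In spleen the highest 2 libraries of Mir19b-1 (1718 and 1367) are the lowest 2 of Mir19b-2 (1774 and 1757), while in heart both genes have all 3 positive-side libraries above the negative side.

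The share of Mir19b-1 in the reads of both genes took 2 levels in liver and spleen. In spleen it was 24.9%, 49.2% and 43.8% on the positive side and 24.9%, 27.3% and 26.8% on the negative side. In liver it was 52.9%, 27.4% and 24.7% on the positive side and 23.4%, 28.7% and 53.0% on the negative side, so the libraries with a high share stood on both sides. Heart kept between 21.6% and 32.3% in its 6 libraries and kidney between 16.2% and 28.3%. In brain the share was 26.4%, 19.2% and 37.7% on the positive side and 17.8%, 19.0% and 9.38% on the negative side, from 348 Mir19b-1 reads in all.

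The same libraries stood apart at another pair of genes with 1 mature sequence, Mir181b-1 and Mir181b-2, which were looked at after these values had been seen. In spleen Mir181b-1 made up 51.1%, 36.1% and 39.5% of that pair on the positive side and 51.8%, 52.8% and 50.0% on the negative side. In liver it made up 38.1%, 54.0% and 60.0% on the positive side and 51.0%, 55.4% and 32.3% on the negative side. The pair Mir128-1 and Mir128-2 did not show 2 levels, with a Mir128-1 share between 79.7% and 81.9% in spleen and between 79.0% and 85.6% in liver. The same 2 libraries were the highest in spleen, at 81.9% and 81.3% with the next at 81.2%, while in liver the same 2 did not stand apart. For Mir29b-1 and Mir29b-2 the Mir29b-1 share in liver was 62.0%, 60.5% and 54.9% on the positive side and 57.7%, 56.9% and 64.6% on the negative side, so the same 2 libraries were the highest, by a small margin. In spleen it lay between 58.8% and 65.3%, and those 2 libraries did not stand apart. What sets these libraries apart is not in the labels, and its part in the Mir19b-1 fold change was not tested.

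**Figure D4:**
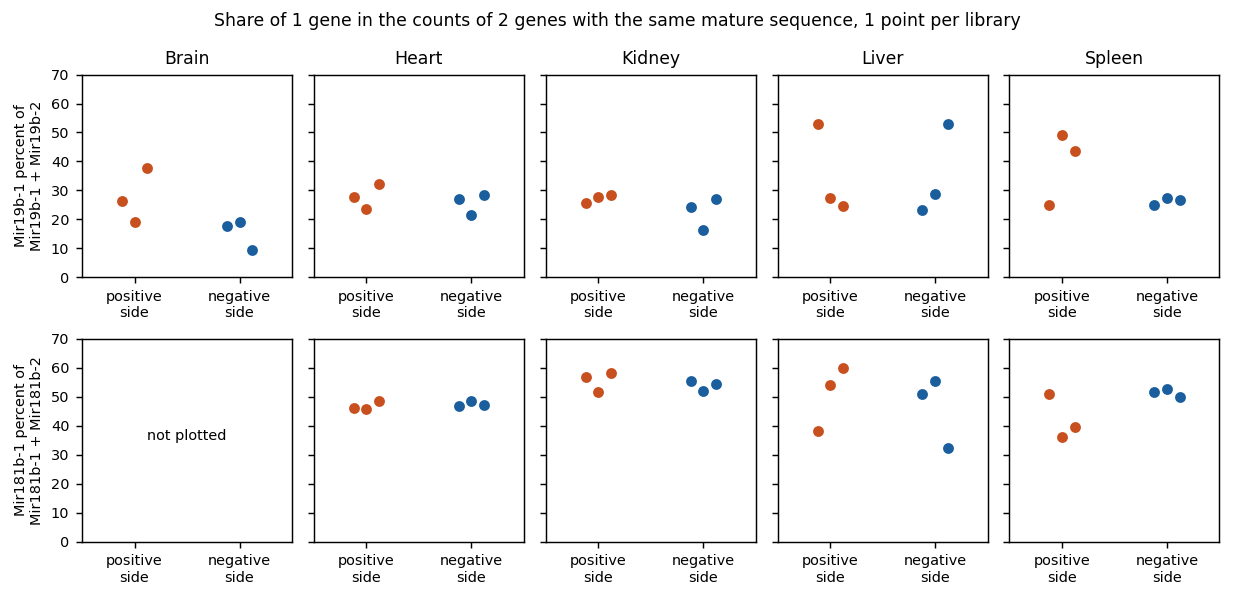
Share of Mir19b-1 in the counts of Mir19b-1 and Mir19b-2 (upper row) and of Mir181b-1 in the counts of Mir181b-1 and Mir181b-2 (lower row, brain not plotted), in percent, 1 point per library and 1 column per organ, positive side left and negative side right. In liver 2 libraries and in spleen 2 libraries stand above the rest for Mir19b-1, at 43.8% or more, and the same libraries are the lowest for Mir181b-1.

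Mir19a differs from miR-19b by 1 base and has 1 source. It had 770, 673 and 648 normalized counts on the positive side and 587, 530 and 633 on the negative side in spleen, which did not overlap. The authors' deposited table gives a log2 fold change of 0.26 with a standard error of 0.24 and adjusted p = 0.988 by DESeq2. In heart it had 66.4, 169 and 117 on the positive side and 67.4, 97.8 and 54.5 on the negative side, with overlap, and in brain 23.4, 17.4 and 72.6 against 13.2, 18.7 and 25.7, positive side first. The deposited log2 fold change of brain Mir19a, 0.97 with a standard error of 0.77 in the authors' deposited table, rested on 1 library: without the third positive library the log2 ratio of the side means was 0.09. In kidney Mir19a lay between 87.3 and 285 normalized counts and in liver between 93.1 and 490, and the lowest library of the organ was on the negative side in both.

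Mir17, the name-giving member, had 363, 345 and 355 normalized counts on the positive side and 285, 302 and 193 on the negative side in brain. The sides did not overlap, the third negative library was the lowest, and the log2 fold change was 0.45 with a standard error of 0.32 and adjusted p = 0.989 by DESeq2 in the authors' deposited table. In spleen Mir17 had 3890, 2300 and 2804 on the positive side and 2867, 2645 and 3181 on the negative side, with overlap. Mir20a followed another order in brain, with 222, 218 and 327 on the positive side and 368, 292 and 205 on the negative side. The ratio of Mir20a to Mir17 within a library, which no scaling between libraries changes, was 0.613, 0.632 and 0.923 on the positive side and 1.29, 0.969 and 1.06 on the negative side in brain, and these did not overlap. Of 42 such ratios looked at over the 5 organs, 2 did not overlap, both among the 8 of brain and both over Mir17 (the other was Mir106b to Mir17). Among single features of a mean of at least 10, between 9.8% (brain) and 15.6% (heart) did not overlap. These shares are not a like background, because the ratios share genes and some include genes of a lower mean. In kidney Mir20a had 1623, 1675 and 1706 on the positive side and 2093, 2081 and 1764 on the negative side, all 3 lower, with a deposited log2 fold change of -0.25, a standard error of 0.30 and adjusted p = 0.975 by DESeq2 in the authors' deposited table. The sum of the 4 Mir17-92 genes overlapped between the sides in each of the 5 organs.

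In the Mir106b-25 cluster, the highest library of Mir106b was 1.16 times the lowest in brain and 1.44 times in heart, against 1.38 and 2.21 times for Mir93 and 1.77 times for Mir25 in brain. In the other organs only Mir106b has values per library, and in liver its highest library was 1.84 times the lowest. In brain it had 1769, 1797 and 1897 normalized counts on the positive side and 1754, 1639 and 1707 on the negative side, without overlap, for a log2 fold change of 0.10 with a standard error of 0.24 in the authors' deposited table. In spleen it had 7187, 6048 and 6704 on the positive side and 7308, 6323 and 8193 on the negative side. Mir93 in heart had 11491, 7946 and 8366 on the positive side and 5196, 9452 and 6259 on the negative side. These overlapped by 1 library of the negative side, and the authors' deposited table gives a log2 fold change of 0.41 with a standard error of 0.26 and adjusted p = 0.565 by DESeq2. Spleen Mir93 and Mir25, for which no values per library could be had, were at -0.28 with a standard error of 0.22 and at -0.32 with a standard error of 0.25 in the authors' deposited table.

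In the Mir106a-363 cluster, heart Mir363 had the widest separation. Its positive side had 57, 18 and 16 reads and its negative side 39, 0 and 1, which is 24.1, 26.0 and 26.5 normalized counts on the positive side and 17.1, 0 and 1.56 on the negative side. Of the negative side, the deepest library was near the positive side and the other two were at 0 or 1 read. In the library with 0 reads, 3 reads would have been 4.08 normalized counts, a limit that covers counting error only. The authors' deposited table gives a log2 fold change of 1.90 with a standard error of 1.08 and p = 0.0777, with no adjusted p. Without each library in turn the log2 ratio of the side means lay between 1.45 and 5.03, with the lowest value on leaving out the second negative library, the one at 0, and the highest on leaving out the first negative library. In the same organ the 3 detected leukocyte markers were all negative in the authors' deposited table, Mir150 at a log2 fold change of -0.51 (standard error 0.23, adjusted p = 0.317 by DESeq2), Mir155 at -0.20 (0.25, adjusted p = 0.865) and Mir223 at -0.14 (0.24, adjusted p = 0.957). Their part in the Mir363 values was not tested. Summed over the cluster's 3 genes, heart had 31.7, 31.8 and 41.3 normalized counts on the positive side and 18.8, 6.79 and 14.0 on the negative side.

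Spleen Mir20b had 338, 357 and 358 normalized counts on the positive side and 438, 381 and 429 on the negative side, without overlap. Its log2 fold change was -0.25 with a standard error of 0.26 and adjusted p = 0.988 by DESeq2 in the authors' deposited table. Spleen Mir106a had 164, 178 and 147 on the positive side and 152, 174 and 355 on the negative side. Its deposited log2 fold change of -0.48, with a standard error of 0.38 in the authors' deposited table, came from the third negative library, since the log2 ratio of the side means without it was -0.00. Spleen Mir363 had 935, 741 and 717 on the positive side and 762, 846 and 962 on the negative side. Kidney Mir20b had 172, 79.3 and 104 on the positive side and 214, 174 and 141 on the negative side, and kidney Mir363 had 446, 616 and 400 on the positive side and 397, 291 and 472 on the negative side, both with overlap.

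The largest fold change of all 50 values was liver Mir20b, at a log2 of 3.34 with a standard error of 2.41 and adjusted p = 0.991 by DESeq2 in the authors' deposited table. It rested on 14, 2 and 0 reads of the positive side against 2, 2 and 0 of the negative side, and 1 library held 14 of the 20 reads. Without that library the log2 ratio of the side means was 1.16. Brain Mir20b was alike in this: 61 of its 97 reads were in 1 positive-side library, and without it the log2 ratio was -1.02, against 0.38 with it.

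**Figure D5:**
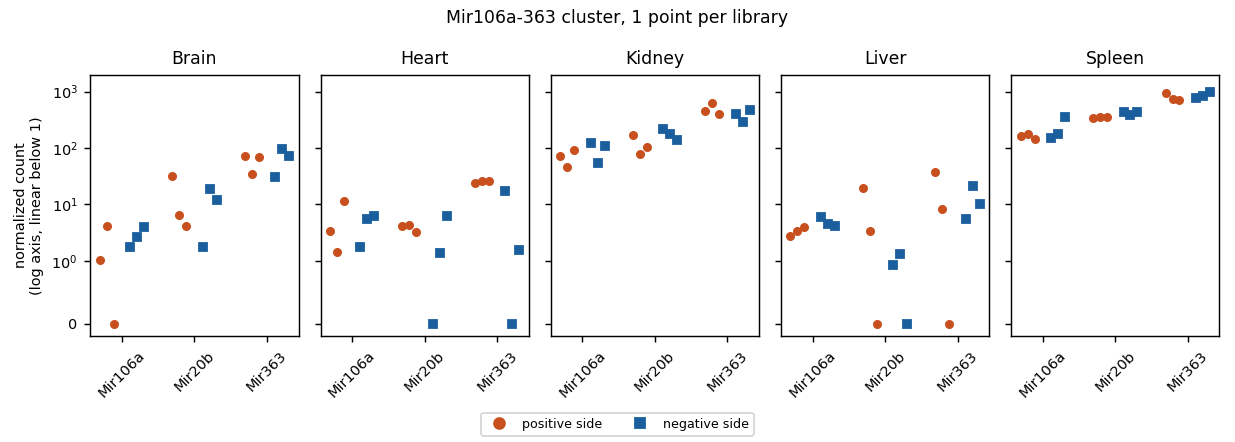
Normalized counts of Mir106a, Mir20b and Mir363 in each organ, 1 point per library (circles for the positive side, squares for the negative side), on an axis that is logarithmic above 1 and linear below. All kidney and spleen libraries lie at 45.5 or higher, while single libraries in brain, heart and liver are at 0.

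Values per library with a mean of at least 10 were at hand for 38 of the 50 values. The sides did not overlap in 8 of them: Mir17 and Mir106b of 9 in brain, Mir19b-1 and Mir363 of 7 in heart, Mir20a of 8 in kidney, none of 6 in liver, and Mir19a, Mir19b-1 and Mir20b of 8 in spleen. Heart Mir363 reached a mean of 10 only through its positive side, at 25.5 there and 6.21 on the negative side. Its place among the 8 is therefore not separate from the filter. Over all features of such a mean whose values could be split, the sides did not overlap for 11.3% in spleen, 10% in liver, 12.5% in kidney, 15.6% in heart and 9.8% in brain. With 3 libraries against 3, an exact permutation test of 1 gene cannot give a two-sided p below 0.1.

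The difference between organs in the genotype contrast was tested for every feature in each of 10 organ pairs, as a two-sided z of 2 deposited log2 fold changes over their combined standard error, with Benjamini-Hochberg adjustment over the features of a pair. None of the 100 differences of the 10 genes passed an adjusted p of 0.05, and the lowest adjusted p was 0.989. Among all features, 0.0119% of the differences over the 10 pairs passed. Mir93 between heart (log2 0.41) and spleen (log2 -0.28), as given by the authors' deposited tables, was the only 1 of the 100 with an unadjusted p below 0.05 (p = 0.0437), against 2.73% of all differences. This test takes the numerator to be the same genotype in both tables. If the tables of a pair had opposite numerators, a reading added after seeing the data, again none of the 100 would pass (0.155% of all differences would). By the same z of DESeq2 fold changes, the only 1 of the 100 with an unadjusted p below 0.05 would then be Mir19b-1 between heart and spleen (adjusted p = 0.0736), against 4.77% of all differences. The test treats the organs as independent, although the same 6 mice gave all of them.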

How the data were processed

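The 30 small RNA libraries were made with the NEXTflex kit after phenol-based extraction, per the labels' protocols. featureCounts (Subread 2.0.3), the GRCm39 build and DESeq2 are named by the submitters' processing notes. Aligner, annotation, handling of reads with several matches and the model's terms: not given in the sources used here. The authors deposited 1 table per organ. Its mean is a signal that the authors made, counts divided by size factors and averaged over 6 libraries, per the file headers. The authors gave fold changes and standard errors as log2 values and the Wald statistic as a score, as the file headers name them. The deposited p-value goes with that statistic, per the file headers. A row with no name was left out, and 0 columns of values per sample were left unused.

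The genes and lists were chosen with earlier results of these data known. Named features were the 10 genes, the other genes of the 3 clusters, genes elsewhere with the miR-25 seed, the marker lists, and per cluster the 3 features most alike over organs. Mir181b-1, Mir128-1, Mir29b-1 and their copies were added after their values were seen. Reads could be recovered for part of the features alone, so the authors' test over all features was kept.

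Means below 0.6 were explained, at a tolerance of 1e-11, by 6 size factors per organ (all 174 to 272 such means). Larger means were split into whole reads by enumeration. A split was kept if the authors' DESeq2 model, rebuilt in Python, gave the deposited log2 fold change within 1e-13 (1e-06 for means below 20). Splits with an extreme scatter between libraries were not searched. Size factors ran from 0.5 to 2.37. Total reads per library are not known, and precision is limited by 3 libraries per genotype. Splitting was tried on simulated features of brain and spleen alone. Their means lay above 20 and below those of the largest values split, such as heart Mir93, so neither end was covered. The organ test was tried on simulated heart and spleen values drawn as independent. The outcomes are not given here.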

Additional observations from a re-analysis of the deposited data

How the results depend on the processing

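The count of 0 genes past the threshold held in all 5 organs whether p was adjusted over every feature with a p-value or over those with a mean of 10 or more; at an unadjusted p below 0.05 it was 1 in heart and 1 in spleen and 0 in brain, kidney and liver. Under the 3 other settings the median log2 fold change of the 10 genes moved by less than their median standard error in every organ, between 0.15 and 0.35 in brain, 0.31 and 0.39 in heart, -0.10 and 0.09 in kidney, 0.13 and 0.31 in liver and -0.12 and 0.02 in spleen. The genes' summed share became 0.937% in spleen, 0.21% in liver, 0.243% in kidney, 0.348% in heart and 0.0925% in brain of microRNA symbols alone, and 2.03% in spleen, 0.549% in liver, 0.478% in kidney, 0.59% in heart and 0.132% in brain without the 5 highest features, which puts liver above kidney; spleen was highest each time. No organ difference of the 10 genes passed with a correlation of 0.5 between organs, among features with a mean of 10 or more, centred on abundant features, or with opposite numerators in the 2 tables (chosen after seeing the data). Of 43 log2 ratios between the sides, 26 were above 0 (21 to 28 without 1 library number of a side), a count over organs whose numerator genotype may differ. Without some single library 17 of the 43 changed sign, while no value had passed the adjusted threshold to begin with. Mir19b-1 in heart and in spleen, with an unadjusted p below 0.05 by the authors' DESeq2 test, kept its sign. With Mir19b-2 added to Mir19b-1, a choice made after seeing the data, the log2 ratio was 0.21 in spleen, 0.05 in liver, -0.04 in kidney, 0.66 in heart and -0.17 in brain. No paired analysis was possible because no deposited column or recovered library can be tied to a mouse. Low read counts of Mir106a, Mir20b and Mir363 in brain, heart and liver limit what can be said there.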
